A study of Homo sapiens with 12 samples.

Results

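The plasminogen activation genes SERPINE2, SERPINB2, PLAU, PLAUR and PLAT were followed in HK-2 cells, a human line derived from the epithelium of kidney proximal tubules and long used in culture. The 5 genes were chosen by symbol, matched to the Ensembl identifiers of the count tables, out of 40649 genes in each table. Of them 4 had enough counts to be tested, among 19268 tested genes, and SERPINB2 had no read in any library.

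Polyadenylated RNA was counted in 12 libraries, 4 per group. The group shYAP1_H2O2 carries the genotype label Yap1 knockdown and received hydrogen peroxide, an oxidant, at 150 µM for 48 h. The group shNC_H2O2 has the genotype label ShNC and received the same H2O2, and the group shNC has the same genotype and the treatment label Control. The 3 groups share the HK-2 line and its culture medium with serum. Knockdown cells without H2O2 were not analysed here, so the knockdown alone and its interaction with H2O2 were not tested. The labels do not state if a group's libraries are separate cultures or how many knockdown clones were used, so the p-values here reflect how far these libraries spread, and that spread may be technical.

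Plasminogen is a circulating proenzyme that is cut to plasmin, a serine protease that degrades fibrin and extracellular matrix and activates growth factors and matrix metalloproteinases. PLAU encodes urokinase and PLAT encodes tissue plasminogen activator, the proteases that make this cut. Urokinase is held at the cell surface by its receptor, encoded by PLAUR, while serpins such as those encoded by SERPINE2 and SERPINB2 trap the activators in inactive complexes. In the kidney, tubular epithelium is a known source of urokinase, and the system is studied in matrix turnover after tubular injury.

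Total counts ranged from 30789997 to 46582873 per library. In shNC replicate 4 and shYAP1_H2O2 replicate 3, mitochondrially encoded genes took 13.9% and 11.3% of counts, against 4.54% to 5.64% in the other 10 libraries, and the members' calls and list counts that change without these 2 libraries are given both ways. YAP1, the gene named in the knockdown label, had 131.3, 134.7, 110.9 and 135.9 CPM (counts scaled to a common library size) in shYAP1_H2O2, 155.2, 151.1, 155.6 and 163.5 CPM in shNC_H2O2, whereas the shNC libraries had 135.9, 130.3, 140.5 and 123.7 CPM. It was lower in shYAP1_H2O2 than in shNC_H2O2 (log2 fold change -0.29 ± 0.07 SE, edgeR adjusted p = 0.00346), where 54.7% of tested genes changed as much or more. Without shYAP1_H2O2 replicate 3 that difference was -0.22. YAP1 in shYAP1_H2O2 did not differ detectably from shNC (adjusted p = 0.636), so the group name shYAP1_H2O2 refers throughout to the label of the libraries. All 7 listed markers of renal epithelium averaged 1 CPM or more over the 12 libraries. Of 12 matched proximal tubule markers 3 did, namely MME, GGT1 and SLC34A1, the last of which averaged 1.61 CPM in shYAP1_H2O2, 0.245 CPM in shNC_H2O2 and 1.22 CPM in shNC, and the defining uptake receptor LRP2 averaged at most 0.0850 CPM in a group. In RNA from whole cultures, fewer cells expressing a gene and less RNA of it per cell cannot be told apart.

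The bases before the annotated transcription starts are shown for 4 members, because PLAUR, PLAU and SERPINE2 moved in the same comparisons while SERPINB2 stayed at 0. PLAT moved in the same comparisons too and is not shown. Sequences are from RefSeq on GRCh38.p14, 250 bases ending just before the start, read 5′ to 3′ on the gene's own strand. PLAUR lies on chr19:43670170-43670419 (minus strand), PLAU on chr10:73910882-73911131 (plus strand, the downstream of 2 annotated starts), SERPINE2 on chr2:224038641-224038890 (minus strand, the upstream of 2 starts) and SERPINB2 on chr18:63887455-63887704 (plus strand). Capitals mark matches on either strand to TGANTCA, the AP-1 motif, or GGGCGG, the GC box bound by SP1.
PLAUR: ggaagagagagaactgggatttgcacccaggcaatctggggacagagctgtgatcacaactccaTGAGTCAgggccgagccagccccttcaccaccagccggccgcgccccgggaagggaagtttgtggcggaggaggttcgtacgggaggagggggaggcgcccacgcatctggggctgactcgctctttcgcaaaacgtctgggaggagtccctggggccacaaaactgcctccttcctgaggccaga
PLAU: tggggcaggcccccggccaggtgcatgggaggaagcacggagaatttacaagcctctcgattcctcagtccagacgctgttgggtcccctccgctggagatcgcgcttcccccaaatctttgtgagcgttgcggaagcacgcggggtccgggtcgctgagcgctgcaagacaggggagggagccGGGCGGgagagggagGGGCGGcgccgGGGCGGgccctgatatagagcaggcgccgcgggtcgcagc
SERPINE2: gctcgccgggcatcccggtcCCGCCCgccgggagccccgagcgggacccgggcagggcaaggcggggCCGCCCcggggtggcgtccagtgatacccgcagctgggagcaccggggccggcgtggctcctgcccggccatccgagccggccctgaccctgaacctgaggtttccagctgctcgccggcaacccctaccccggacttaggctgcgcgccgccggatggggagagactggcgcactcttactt
SERPINB2: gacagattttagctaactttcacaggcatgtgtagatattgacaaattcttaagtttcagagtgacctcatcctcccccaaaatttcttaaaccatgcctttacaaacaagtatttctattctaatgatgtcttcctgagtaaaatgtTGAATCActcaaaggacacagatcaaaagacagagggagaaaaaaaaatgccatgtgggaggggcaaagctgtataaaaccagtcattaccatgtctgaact

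The PLAUR window held 1 AP-1 match, 186 to 180 bases before the start, and the SERPINB2 window held 1, 102 to 96 bases before it. The PLAU window held 3 GC boxes and the SERPINE2 window 2, with no AP-1 match in either. At the other annotated start PLAU had no match and SERPINE2 had 1 GC box. Matches to GGAATG, the TEAD motif through which YAP1 acts on DNA, and to TGACGTCA, the CRE, were searched on both strands and were not in any of these windows, and no 2 matches overlapped. Of 35116 promoter windows of this length 6.57% held an AP-1 match, 11.9% a TEAD match, 42.6% a GC box and 1.65% a CRE. A match is a description of letters, and enhancers outside these windows were not searched.

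PLAU (ENSG00000122861, GRCh38 chromosome 10, 73909177 to 73917497, plus strand) was the most abundant member and stayed high in both H2O2 groups. It had 692.6, 692.9, 667.5 and 686.7 CPM in shYAP1_H2O2, 800.4, 835.0, 793.4 and 771.2 CPM in shNC_H2O2, whereas the shNC libraries had 339.4, 344.1, 380.3 and 334.7 CPM. The groups did not overlap, with shNC far below both others. PLAU rose 2.29-fold in shNC_H2O2 against shNC (log2 fold change 1.19 ± 0.06 SE, edgeR adjusted p = 1.4e-10). In shYAP1_H2O2 it was 14.4% lower than in shNC_H2O2 (-0.22 ± 0.06, adjusted p = 0.00435), where 62.9% of tested genes changed as much or more. That log2 change was -0.39 once the shift of the 51 tested genes around PLAU was removed (limma adjusted p = 0.000543). PLAU in shYAP1_H2O2 remained 1.96-fold above shNC (0.97 ± 0.06, edgeR adjusted p = 9.04e-09). Permuting the group labels of log2 CPM exactly, two-sided, gave an exact p = 0.0286 for each difference, the smallest that 70 assignments of 4 against 4 allow. C10orf55 shares 31.1% of the exon bases of PLAU, and strand use is not stated, which makes PLAU uncertain to that extent. That gene had at most 72 counts in a library, against at least 11422 for PLAU.

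PLAT (ENSG00000104368, chromosome 8, 42175233 to 42207724, minus strand) changed most among the members in both comparisons that involve shNC_H2O2. It had 12.7, 13.9, 13.9 and 14.2 CPM in shYAP1_H2O2, 34.9, 37.8, 38.2 and 35.7 CPM in shNC_H2O2, whereas the shNC libraries had 7.64, 9.76, 9.98 and 9.08 CPM. Each group stood apart from the other 2, and shYAP1_H2O2 lay nearer to shNC. PLAT rose 4.01-fold in shNC_H2O2 against shNC (2.01 ± 0.09, edgeR adjusted p = 6.28e-11), a rise that 2.11% of tested genes matched or exceeded. In shYAP1_H2O2 it was 62.7% lower than in shNC_H2O2 (-1.42 ± 0.09, adjusted p = 4.49e-09), and 2.88% of tested genes were as far or further down. It was still 49.6% higher than in shNC (0.58 ± 0.09, adjusted p = 0.000123). The exact permutation p was 0.0286 for each of these differences.

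PLAUR (ENSG00000011422, chromosome 19, 43646095 to 43670547, minus strand), the urokinase receptor, was highest in shNC_H2O2. It had 50.1, 48.8, 63.2 and 49.4 CPM in shYAP1_H2O2, 79.4, 82.7, 82.5 and 78.0 CPM in shNC_H2O2, whereas the shNC libraries had 45.3, 44.4, 47.0 and 48.6 CPM. The value of 63.2 CPM belongs to shYAP1_H2O2 replicate 3, one of the libraries with a high mitochondrial share, and the other 3 lay just above the highest shNC library. PLAUR rose 1.74-fold in shNC_H2O2 against shNC (0.80 ± 0.08, edgeR adjusted p = 6.41e-07) and was 34.4% lower in shYAP1_H2O2 than in shNC_H2O2 (-0.61 ± 0.08, adjusted p = 1.53e-05). Between shYAP1_H2O2 and shNC it did not pass (0.19 ± 0.08, 95% interval 0.02 to 0.36, adjusted p = 0.0792), although the groups did not overlap (exact permutation p = 0.0286). Without shYAP1_H2O2 replicate 3 that difference was 0.10 (edgeR adjusted p = 0.176).

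The part of chromosome 19 that holds PLAUR moved in the same direction. The running median of the 51 tested genes around it was 0.27 on the log2 scale in shNC_H2O2 against shNC, while it was -0.37 in shYAP1_H2O2 against shNC_H2O2. The nearest tested genes were CADM4, an adhesion molecule, at 1.12 ± 0.13 and -0.59 ± 0.13, and SMG9, a factor of mRNA decay, at 0.48 ± 0.12 and -0.40 ± 0.12, all past the edgeR test (adjusted p = 4.68e-06 to 0.0117). With the shift of neighbouring genes removed PLAUR changed by 0.53 and -0.24 and again passed (limma adjusted p = 1.58e-05 and 0.0125). The call against shNC then passed as well (0.29, adjusted p = 0.00479). The shifts around PLAU were -0.14 and 0.16, opposite to its own changes. Its nearest tested gene C10orf55, which overlaps it, moved in the same directions as PLAU, at 0.65 ± 0.23 and -0.68 ± 0.23 (edgeR adjusted p = 0.0293 and 0.0254). In shYAP1_H2O2 against shNC, C10orf55 did not pass (-0.03 ± 0.24, adjusted p = 0.932), whereas PLAU was higher (0.97 ± 0.06). CAMK2G, on the other side, did not pass (-0.10 ± 0.06 and 0.14 ± 0.06, adjusted p = 0.212 and 0.0855). The shifts around PLAT were -0.06 and 0.02. The neighbours of PLAT, AP3M2 and IKBKB, did not pass in either comparison.

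SERPINE2 (ENSG00000135919, chromosome 2, 223975112 to 224039319, minus strand), which encodes protease nexin 1, an inhibitor of urokinase, tissue plasminogen activator and thrombin, moved opposite to the activators. It had 151.4, 151.7, 162.5 and 156.3 CPM in shYAP1_H2O2, 124.1, 118.6, 125.7 and 120.0 CPM in shNC_H2O2, whereas the shNC libraries had 153.9, 157.9, 155.4 and 160.2 CPM. The shNC_H2O2 libraries were below all others, and the other 2 groups overlapped. SERPINE2 was 22.2% lower in shNC_H2O2 than in shNC (-0.36 ± 0.05, edgeR adjusted p = 2.71e-05) and 27.3% higher in shYAP1_H2O2 than in shNC_H2O2 (0.35 ± 0.05, adjusted p = 4.92e-05). Between shYAP1_H2O2 and shNC the difference was -0.01 ± 0.05, with a 95% interval of -0.12 to 0.10 (adjusted p = 0.875, exact permutation p = 0.657). With the shift of neighbouring genes removed it was -0.14 and passed (limma adjusted p = 0.0453). The changes are small, and 49.2% of tested genes changed as much or more with H2O2. Of the tested genes on either side, CUL3, a scaffold of ubiquitin ligases, went the other way, with 0.27 ± 0.06 in shNC_H2O2 against shNC (edgeR adjusted p = 0.00266) and, in shYAP1_H2O2 against shNC_H2O2, -0.49 ± 0.06 (adjusted p = 1.55e-05). MRPL44, a protein of the mitochondrial ribosome, did not pass with H2O2 (-0.08 ± 0.07, adjusted p = 0.408) and was higher in shYAP1_H2O2 than in shNC_H2O2 (0.24 ± 0.07, adjusted p = 0.0161), as SERPINE2 was.

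SERPINB2 (ENSG00000197632, chromosome 18, 63871692 to 63903890, plus strand), which encodes plasminogen activator inhibitor 2, had 0 counts in each of the 12 libraries. A count of 0 allows up to 3 counts, or 0.0644 to 0.0974 CPM depending on the library, a limit that covers counting error only. No change can therefore be given for it. In the same cluster of SERPINB genes, the nearest tested genes were SERPINB7, with a mean of 3.25 CPM over all libraries, and SERPINB8, with 13.4 CPM. SERPINB7 was lower in shNC_H2O2 than in shNC (-0.72 ± 0.18, edgeR adjusted p = 0.00328), and SERPINB8 did not pass (0.05 ± 0.15, adjusted p = 0.799).

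**Figure D1:**
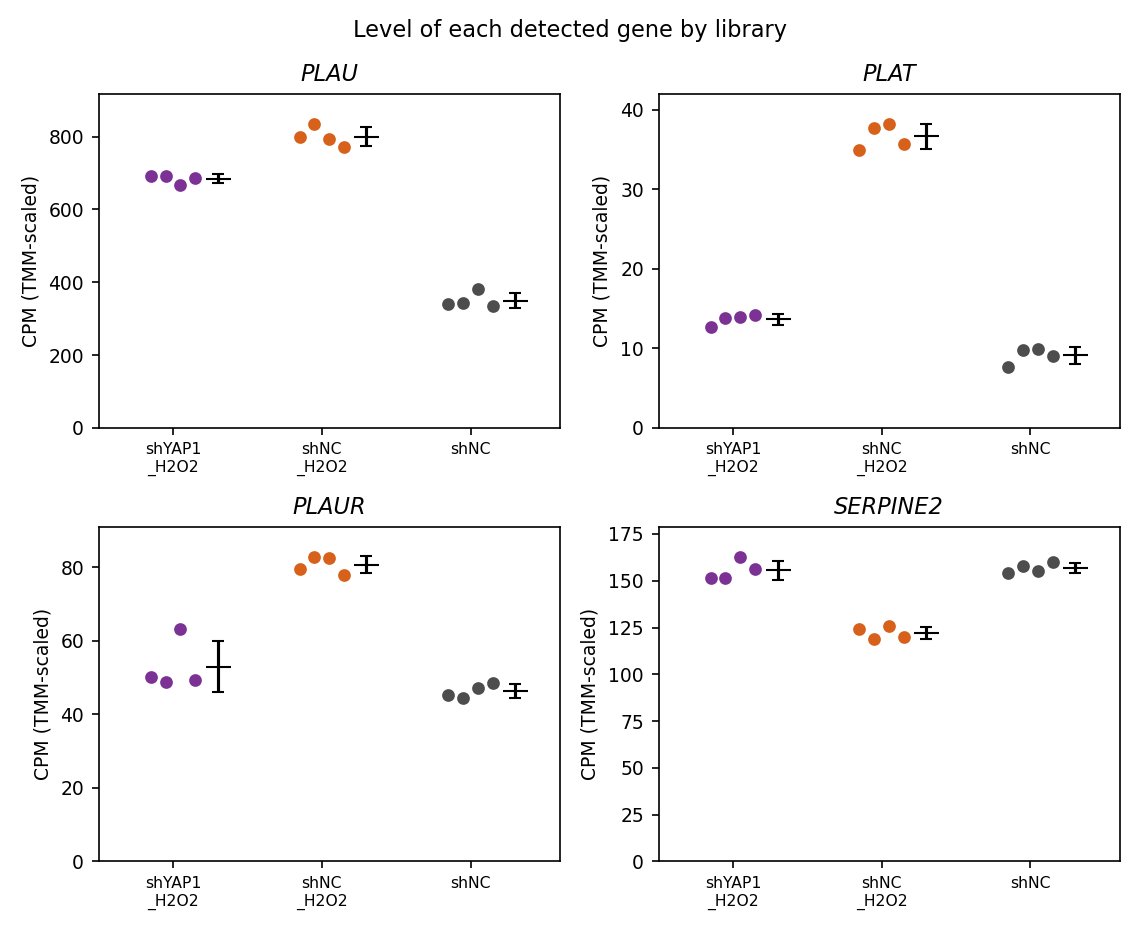
Each point is 1 library, with TMM-scaled CPM on the vertical axis from 0, and the bars beside the points give the mean and SD of 4 libraries. PLAU, PLAT and PLAUR are highest in shNC_H2O2 and SERPINE2 is lowest there, and PLAU in shYAP1_H2O2 (667 to 693 CPM) stays well above shNC (335 to 380 CPM).

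All 4 tested members were called in shNC_H2O2 against shNC, 3 higher and 1 lower, where 46.6% of all tested genes were called (23.9% higher and 22.6% lower). All 4 were called in shYAP1_H2O2 against shNC_H2O2, 3 lower and 1 higher, where 43.0% of tested genes were called (21.0% lower and 22.0% higher). Against shNC, 2 of the 4 were called in shYAP1_H2O2, PLAU and PLAT, both higher, where 32.5% of tested genes were called and 17.4% were higher. Groups did not overlap for 4, 4 and 3 members in these comparisons, against 48.0%, 45.2% and 29.7% of all tested genes. The first 2 comparisons share the shNC_H2O2 libraries, so opposite signs in them are not independent of each other. Without the 2 libraries of high mitochondrial share the calls for the first 2 comparisons stayed, and PLAUR was called against shNC as well (0.11 ± 0.04, adjusted p = 0.0435).

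**Figure D2:**
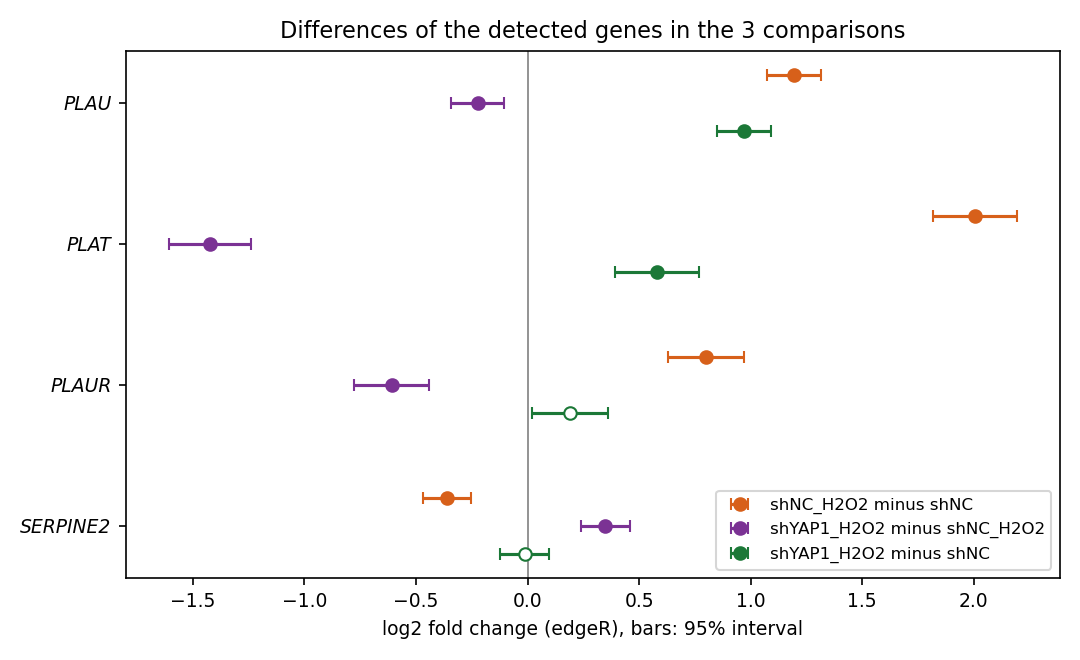
Points are edgeR log2 fold changes of the 4 tested members in the 3 comparisons, with 95% intervals, filled where the adjusted p was under 0.05 and open where it was not. The interval of PLAU against shNC (0.85 to 1.09) lies far from 0 in shYAP1_H2O2, while that of SERPINE2 (-0.12 to 0.10) spans 0.

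Levels of different members were compared per kilobase of exon, as RPKM. In shYAP1_H2O2 PLAU averaged 232 ± 4.06 RPKM, SERPINE2 17.5 ± 0.581, PLAUR 11.9 ± 1.55 and PLAT 2.06 ± 0.103 (SD, n = 4 per group). In shNC_H2O2 the values were 271 ± 8.97 RPKM for PLAU, 13.7 ± 0.374 for SERPINE2, 18.1 ± 0.524 for PLAUR and 5.54 ± 0.239 for PLAT. In shNC they were 119 ± 7.05 RPKM for PLAU, 17.6 ± 0.309 for SERPINE2, 10.4 ± 0.416 for PLAUR and 1.38 ± 0.160 for PLAT. PLAU was the highest and PLAT the lowest of the 4 in all 12 libraries. The receptor lay above SERPINE2 in all 4 libraries of shNC_H2O2 and below it in the other 8. That order depends on the length used, since with the longest single transcript in place of all exons PLAUR lay above SERPINE2 in every library.

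The balance of activator to inhibitor RNA within a library shows the same contrast between groups. The RPKM ratio of PLAU to SERPINE2 ranged from 12.4 to 13.8 in shYAP1_H2O2, from 19.0 to 21.2 in shNC_H2O2 and from 6.30 to 7.38 in shNC. The ratio of PLAU to its receptor ranged from 15.9 to 21.4 in shYAP1_H2O2, 14.5 to 15.3 in shNC_H2O2 and 10.4 to 12.2 in shNC. The ratio of PLAU to PLAT was 108 to 123 in shYAP1_H2O2, 46.6 to 51.4 in shNC_H2O2 and 79.1 to 99.7 in shNC. The 3 ranges of each ratio did not overlap. Urokinase RNA thus stood highest relative to SERPINE2 in shNC_H2O2, and highest relative to PLAT and PLAUR in shYAP1_H2O2. These are ratios of RNA and carry no test. Their size depends on the exon length used, whereas their order between groups does not, since each gene has the same length in every library.

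**Figure D3:**
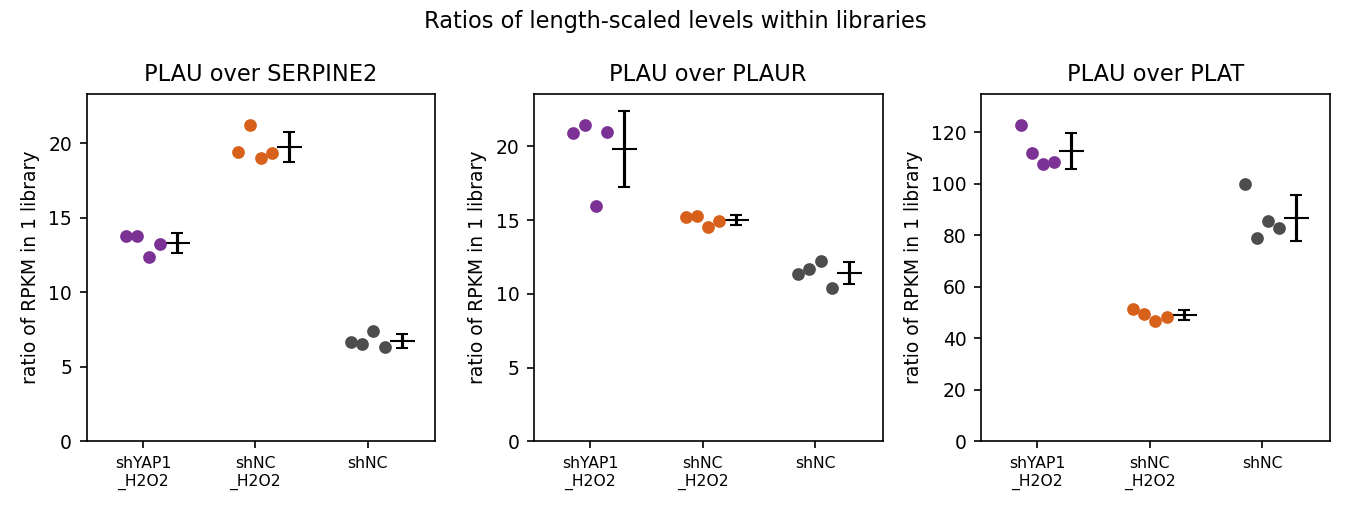
Points are ratios of RPKM within a single library, from 0 on the vertical axis, with the mean and SD of 4 libraries beside them. PLAU over SERPINE2 peaks in shNC_H2O2 (19.0 to 21.2), whereas PLAU over PLAT is lowest there (46.6 to 51.4).

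Replicates of a group lay close together for most members. The coefficient of variation of CPM was 1.75% to 5.95% for PLAU and 1.75% to 3.32% for SERPINE2. For PLAT it was 4.32% to 11.6%, highest in shNC, where counts were 257 to 426. For PLAUR it reached 13.1% in shYAP1_H2O2, against 2.89% in shNC_H2O2 and 4.00% in shNC. Across the 12 libraries log2 CPM of PLAT followed that of PLAUR most closely (Pearson r = 0.96), then PLAU (r = 0.83), and ran opposite to SERPINE2 (r = -0.94). These values describe 12 libraries that fall in 3 groups.

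Among 11074 genes with at least 5 CPM, those with the profile most like PLAT over the 12 libraries were MAP4K4, a kinase (Pearson r = 0.99), ABTB3 and GJA3, a gap junction protein. MAP4K4 averaged 304 ± 10.8 CPM in shYAP1_H2O2, 585 ± 14.8 CPM in shNC_H2O2 and 243 ± 3.54 CPM in shNC. The genes most like PLAU were ISCU, an iron-sulfur cluster scaffold, PGPEP1 and EFNB2, the ligand ephrin B2. EFNB2 averaged 23.9 ± 1.32 CPM in shYAP1_H2O2, 31.1 ± 1.73 CPM in shNC_H2O2 and 10.8 ± 0.797 CPM in shNC. For PLAUR they were AGPAT3, LIMK1, a kinase of the actin regulator cofilin, and PTPN21. For SERPINE2 they were NRXN3, PTCHD1 and WARS2, the mitochondrial tryptophanyl-tRNA synthetase. All 12 correlations rounded to 0.99, over libraries that fall in 3 groups.

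The surrounding pathway was read from 9 lists, whose counts stand against 23.9% higher and 22.6% lower over all tested genes in shNC_H2O2 against shNC, and 22.0% higher and 21.0% lower in shYAP1_H2O2 against shNC_H2O2. Plasminogen itself, PLG, was too low to be tested. The list of plasminogen cofactors and cell-surface receptors also took in THBD, which binds thrombin. Of its 5 tested genes, 1 (THBD) was higher and 3 lower in shNC_H2O2 against shNC. In shYAP1_H2O2 against shNC_H2O2 3 were higher, THBD among them, and 0 lower. With the shift of neighbouring genes removed the second count was 2 higher and 1 lower. Their median log2 fold changes were -0.59 and 0.17, against 0.0040 and -0.0040 for all tested genes. ENO1, a glycolytic enzyme that also binds plasminogen at the cell surface, averaged 1408 ± 24.5 CPM in shNC_H2O2 and 3403 ± 547 CPM in shNC (-1.27 ± 0.11, edgeR adjusted p = 9.82e-08). It was higher in shYAP1_H2O2 than in shNC_H2O2 (0.56 ± 0.11, adjusted p = 0.000511). S100A10, the partner of annexin A2 that binds plasminogen and its activator, fell to 102 ± 2.10 CPM in shNC_H2O2, against 179 ± 9.26 CPM in shNC (-0.81 ± 0.06, adjusted p = 2.33e-08), a change of -0.17 with the neighbouring shift removed (limma adjusted p = 0.0232). THBD, thrombomodulin, rose in shNC_H2O2 against shNC (0.99 ± 0.15) and was higher again in shYAP1_H2O2 (0.41 ± 0.14, adjusted p = 0.0286). That last call was lost with library sizes alone (adjusted p = 0.0614) and without any one of 5 of the 8 libraries compared (adjusted p = 0.0511 to 0.113).

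Of 5 tested other serpins that act on plasminogen activators or plasmin, 1 was higher and 1 lower in shNC_H2O2 against shNC, and 2 were higher and 2 lower in shYAP1_H2O2 against shNC_H2O2. The 2 called of 5 with H2O2 are near the 46.6% called over all tested genes, and with both high-mitochondrial libraries left out 2 were higher and 1 lower with H2O2. SERPINF2, the plasmin inhibitor alpha 2 antiplasmin, averaged 20.9 ± 2.38 CPM in shYAP1_H2O2 and 13.4 ± 1.29 CPM in shNC_H2O2 (0.64 ± 0.12, edgeR adjusted p = 0.000549). SERPINB6 was lower in shYAP1_H2O2 than in shNC_H2O2 (-0.22 ± 0.05, adjusted p = 0.00336). Of 2 tested further SERPINB genes both fell with H2O2, and 1 was higher and 0 lower in shYAP1_H2O2 against shNC_H2O2, or 1 higher and 1 lower when those 2 libraries were left out. SERPINB1, an inhibitor of neutrophil proteases, averaged 62.1 ± 3.63 CPM in shYAP1_H2O2, 43.8 ± 1.89 CPM in shNC_H2O2 and 60.7 ± 1.36 CPM in shNC, and was called in both comparisons (adjusted p = 1.17e-05 with H2O2 and 7.57e-06 with the knockdown label).

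Of 14 tested uptake and membrane partners of the urokinase receptor, 5 were higher and 6 lower in shNC_H2O2 against shNC, and 5 were higher and 6 lower in shYAP1_H2O2 against shNC_H2O2. All tested genes also divided about evenly between the directions, with 46.6% and 43.0% called. With both high-mitochondrial libraries left out the counts were 6 higher and 8 lower, and 6 higher and 7 lower. ITGA3, the integrin subunit known to pair with the receptor on epithelial cells, rose to 2057 ± 68.7 CPM in shNC_H2O2, against 1277 ± 133 CPM in shNC (0.69 ± 0.07, edgeR adjusted p = 1.58e-06), and was lower in shYAP1_H2O2 than in shNC_H2O2 (-0.31 ± 0.07). MRC2, the collagen uptake receptor that associates with it, rose with H2O2 (0.60 ± 0.10) and averaged 56.5 ± 1.95 CPM in shYAP1_H2O2 against 131 ± 3.54 CPM in shNC_H2O2 (-1.21 ± 0.10, adjusted p = 2.15e-07). VLDLR, a receptor that clears activator complexes, was lower in shYAP1_H2O2 than in shNC_H2O2 (-0.59 ± 0.08). The fibronectin receptor subunit ITGA5 fell in shNC_H2O2 against shNC (-1.08 ± 0.06) and was higher in shYAP1_H2O2 than in shNC_H2O2 (0.51 ± 0.06), as was IGF2R (-0.44 ± 0.08 and 0.60 ± 0.08).

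In the family that shares the three-finger domain of the urokinase receptor, 2 of 8 tested genes were higher and 2 lower in shNC_H2O2 against shNC, and 0 were higher and 3 lower in shYAP1_H2O2 against shNC_H2O2. With the shift of neighbouring genes removed the counts were 2 higher and 4 lower, and 1 higher and 2 lower, and with both high-mitochondrial libraries left out 2 were higher and 3 lower with H2O2. LYPD1 averaged 4.09 ± 0.340 CPM in shYAP1_H2O2, 22.4 ± 1.39 CPM in shNC_H2O2 and 1.71 ± 0.344 CPM in shNC, and passed in both comparisons (edgeR adjusted p = 7.66e-12 and 5.8e-10). It shares 48.9% of its exon bases with GPR39 and is uncertain to that extent. CD59, the complement inhibitor (-0.39 ± 0.08), and LY6E (-0.65 ± 0.09) fell with H2O2, and LYPD6 was lower in shYAP1_H2O2 than in shNC_H2O2 (-0.52 ± 0.11).

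Among 15 tested trypsin-like proteases and Kunitz-type inhibitors, 6 were higher and 5 lower in shNC_H2O2 against shNC, and 6 were higher and 6 lower in shYAP1_H2O2 against shNC_H2O2. With both high-mitochondrial libraries left out the counts were 8 higher and 5 lower, and 7 higher and 7 lower. TFPI2, a matrix-bound inhibitor of plasmin and other serine proteases, averaged 71.8 ± 6.57 CPM in shYAP1_H2O2, 317 ± 17.5 CPM in shNC_H2O2 and 61.2 ± 9.34 CPM in shNC. It rose with H2O2 (2.37 ± 0.10, edgeR adjusted p = 3.08e-11) and was lower with the knockdown label (-2.14 ± 0.10, adjusted p = 1.66e-10). HTRA1, a secreted serine protease, changed the same way (2.57 ± 0.15 and -1.79 ± 0.14). PRSS8, the membrane protease prostasin, averaged 62.5 ± 5.35 CPM in shYAP1_H2O2, 20.8 ± 2.33 CPM in shNC_H2O2 and 58.7 ± 4.95 CPM in shNC. It fell with H2O2 (-1.49 ± 0.09) and was higher in shYAP1_H2O2 (1.58 ± 0.09). SPINT1, its inhibitor, was also higher in shYAP1_H2O2 than in shNC_H2O2 (0.65 ± 0.08), and PRSS23 fell with H2O2 (-1.41 ± 0.08).

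Of 17 tested genes for proteins that plasmin or urokinase cut or activate, 10 were higher and 3 lower in shNC_H2O2 against shNC, where 23.9% of all tested genes were higher and 22.6% lower, and their median log2 fold change was 0.69. In shYAP1_H2O2 against shNC_H2O2, 3 were higher and 10 lower, where 22.0% of all tested genes were higher and 21.0% lower, and the median was -0.44. With both high-mitochondrial libraries left out the counts were 11 higher and 4 lower, and 4 higher and 12 lower. The list was chosen with earlier results of these data known, so these counts beside the shares of all tested genes are a description and not a test. MMP13, a collagenase whose proenzyme plasmin activates, averaged 1.42 ± 0.280 CPM in shYAP1_H2O2, 139 ± 3.09 CPM in shNC_H2O2 and 2.09 ± 0.853 CPM in shNC. MMP1, interstitial collagenase, averaged 3.30 ± 0.271 CPM in shYAP1_H2O2, 126 ± 4.34 CPM in shNC_H2O2 and 8.52 ± 0.940 CPM in shNC. Both passed in each of these comparisons (edgeR adjusted p = 1.2e-14 to 7.86e-12). MMP1 in shYAP1_H2O2 was below shNC (-1.37 ± 0.09, adjusted p = 2.94e-08), while PLAU in the same libraries was above it. LAMB3, a laminin chain, fell in shNC_H2O2 against shNC (-0.52 ± 0.12) and was higher in shYAP1_H2O2 than in shNC_H2O2 (0.67 ± 0.12). Both calls were lost with the shift of neighbouring genes removed (limma adjusted p = 0.434 and 0.0625).

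Among coagulation genes F3, which encodes tissue factor, the trigger of clotting, was higher in shYAP1_H2O2 than in either other group. It averaged 130 ± 10.6 CPM there, 56.9 ± 1.86 CPM in shNC_H2O2 and 51.2 ± 5.19 CPM in shNC (1.19 ± 0.08 against shNC_H2O2, edgeR adjusted p = 1.19e-08, and 1.34 ± 0.08 against shNC, adjusted p = 1.09e-08). Of 5 tested genes of this list 1 was higher and 2 lower in shNC_H2O2 against shNC, and 3 were higher and 1 lower in shYAP1_H2O2 against shNC_H2O2. With the shift of neighbouring genes removed the counts were 1 higher and 1 lower in both, and with both high-mitochondrial libraries left out 2 were higher and 2 lower with H2O2. The thrombin receptor F2R rose with H2O2 (1.22 ± 0.08) and was lower in shYAP1_H2O2 (-0.65 ± 0.07). PROS1, protein S, fell with H2O2 (-0.80 ± 0.07) and was higher in shYAP1_H2O2 (0.55 ± 0.07). With the shift of neighbouring genes removed its change with H2O2 was -0.28 and the second call was lost (0.09, limma adjusted p = 0.301). PROCR, the protein C receptor, fell with H2O2 (-0.29 ± 0.07), a call lost with library sizes alone (adjusted p = 0.0603) and with the neighbouring shift removed (limma adjusted p = 0.0631).

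Transcription factors known to act on the PLAU and PLAUR promoters were tested for 17 genes. In shNC_H2O2 against shNC 7 were higher and 3 lower, and in shYAP1_H2O2 against shNC_H2O2 3 were higher and 5 lower. With both high-mitochondrial libraries left out the counts were 9 higher and 5 lower, and 5 higher and 7 lower. ETV4 averaged 35.8 ± 4.32 CPM in shYAP1_H2O2, 58.0 ± 1.54 CPM in shNC_H2O2 and 13.7 ± 0.700 CPM in shNC. ETS2 averaged 31.5 ± 3.66 CPM in shYAP1_H2O2, 69.4 ± 4.94 CPM in shNC_H2O2 and 17.3 ± 1.55 CPM in shNC. Both are ETS family factors, and both were called in each comparison (edgeR adjusted p = 2.15e-11 to 4.24e-06). The log2 fold change of ETS2 in shYAP1_H2O2 against shNC_H2O2 was -1.14 ± 0.09, and -0.47 once the neighbouring shift was removed. JUNB, an AP-1 subunit, rose with H2O2 (1.27 ± 0.12) and was lower in shYAP1_H2O2 (-0.96 ± 0.12). NFKB1 fell with H2O2 (-0.56 ± 0.06) and was higher in shYAP1_H2O2 (0.33 ± 0.06). The call for JUN with H2O2 (-0.30 ± 0.11, adjusted p = 0.0399) was lost under 5 of 8 other settings and without any one of 7 of the 8 libraries compared, at adjusted p = 0.0564 to 0.514. ETV5 was higher in shYAP1_H2O2 than in shNC_H2O2 (0.37 ± 0.07) but lower once the shift of neighbouring genes was removed (-0.24, limma adjusted p = 0.00524).

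**Figure D4:**
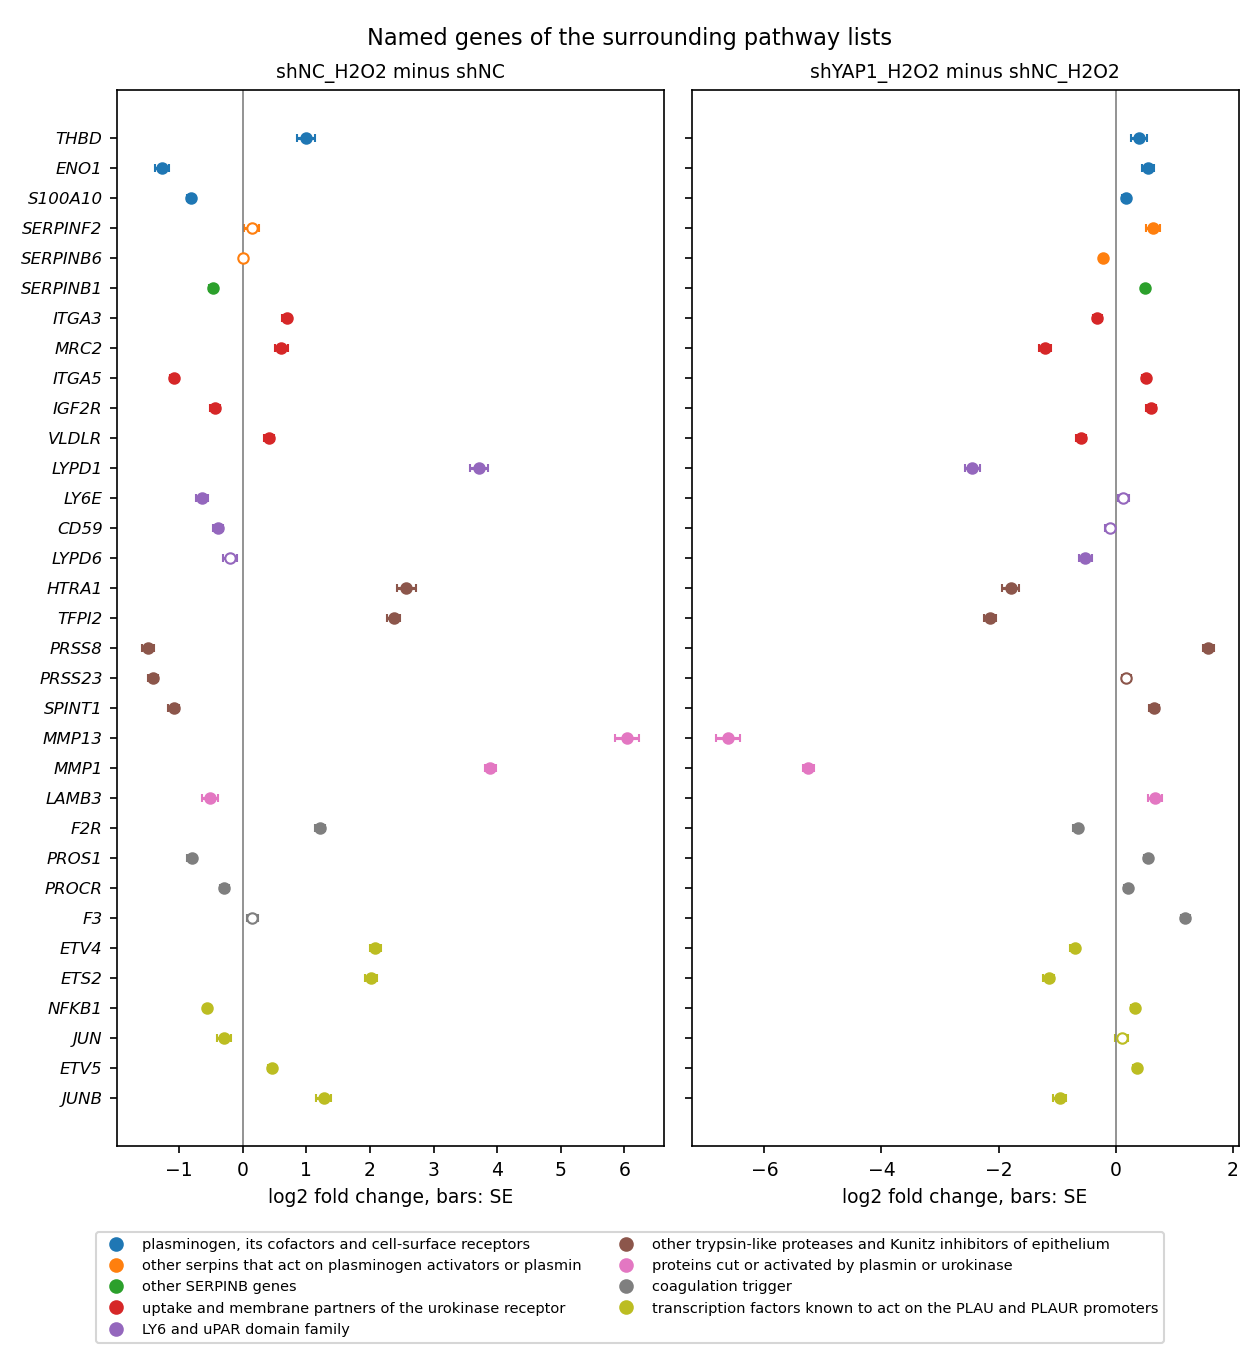
Points are edgeR log2 fold changes with SE of the genes described from the 9 lists, coloured by list, filled where the adjusted p was under 0.05 and open where it was not. MMP13, MMP1, LYPD1, HTRA1 and TFPI2 are the farthest right with H2O2 and the farthest left with the knockdown label.

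Markers of other cell types were read beside these results. Endothelial markers summed to 0.361 to 0.400 CPM in shYAP1_H2O2, 0.0951 to 0.396 CPM in shNC_H2O2 and 0.377 to 0.481 CPM in shNC, so endothelium, a main source of tissue plasminogen activator in the body, left almost no marker RNA. The 6 leucocyte markers summed to 27.3 to 36.2 CPM in shYAP1_H2O2, 13.5 to 18.1 CPM in shNC_H2O2 and 21.0 to 23.7 CPM in shNC, nearly all of it CSF1R, with PTPRC, CD3E and TYROBP below 0.1 CPM on average. The 5 fibroblast markers summed to 143 to 172 CPM in shYAP1_H2O2, 236 to 255 CPM in shNC_H2O2 and 110 to 113 CPM in shNC, an order shared with PLAU, PLAT and PLAUR. LUM made up most of that sum, COL1A2 had 0 counts in every library, and the part of these genes in the results above was not tested.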

How the data were processed

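The authors deposited raw counts per gene, 1 table per library. Per the submitters' processing notes the build was GRCh38 (hg38), and the tools listed are HISAT2, featureCounts, Subread and DESeq2. For tool versions, annotation release and strand setting: not given in the sources used here. Libraries were made with oligo(dT) selection, per the labels' protocols, which speak of kidney tissue although the labels name the cell line. Positions, exon lengths and overlaps came from GENCODE release 29, and genes with over 20% of exon bases in another gene are called uncertain.

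Counts were tested with edgeR 4.0.16 under R 4.3.3: filterByExpr, TMM factors and a robust quasi-likelihood fit of 1 mean per group to all 12 libraries, with Benjamini-Hochberg adjustment over 19268 genes and calls at an adjusted p under 0.05. The fit was checked on simulated data with a single dispersion, few changed genes and no deviant library. That setting is simpler than these data, so the check does not cover their spread. Intervals are at 95%. Alternatives used DESeq2 1.42.0, limma 3.58.1, other scaling, no filter, the 8 libraries compared, left-out libraries and a replicate block. Another took off each library's log2 CPM (prior count 2) the running median of 51 neighbouring genes, centred per gene. Replicates differed by more than sampling noise (chi-square per degree of freedom 2.85 or above). Each library was treated as 1 sample, which that spread does not establish, since it may be technical.

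Members and lists were chosen with earlier results of these data known. Named genes are the members, from each list up to 2 called genes with the largest rise and 2 with the largest fall at 5 CPM or more in each of the first 2 comparisons, and for each member the 3 genes with the highest Pearson correlation, at 5 CPM or more and leaving out clone and pseudogene names, and the nearest tested gene on each side of a member. A gene that meets this rule is not reported here.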

Additional observations from a re-analysis of the deposited data

Results flagged for a closer look

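Of 117 groups of 4 libraries examined, for the members, YAP1 and the named list genes, 14 held a library far from the other 3 by Dixon's limit at 95%, where chance gives about 1 in 20. Of these, 6 were in shNC replicate 4 and 5 in shYAP1_H2O2 replicate 3, the libraries with a high mitochondrial share.

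Among the members only PLAUR was concerned, at 63.2 CPM in shYAP1_H2O2 replicate 3 against 48.8 to 50.1 CPM in the other 3 libraries of that group. In the same library LY6E stood high at 85.7 CPM, and ENO1 at 1737 CPM, IGF2R at 550.5 CPM and MRC2 at 53.6 CPM stood low. In shNC replicate 4 TFPI2 at 75.2 CPM and F2R at 63.6 CPM stood high, while ENO1 at 2585 CPM, ITGA3 at 1079 CPM, LAMB3 at 125.4 CPM and MRC2 at 62.5 CPM stood low. The other 3 were ENO1 at 1444 CPM in shNC_H2O2 replicate 2, LYPD1 at 20.3 CPM in shNC_H2O2 replicate 3 and LYPD1 at 1.19 CPM in shNC replicate 2.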

How the results depend on the processing

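The 4 tested members kept direction and call for H2O2 (shNC_H2O2 against shNC) and for the knockdown label (shYAP1_H2O2 against shNC_H2O2) under all 16 alternatives run for each comparison. Over these, PLAT changed by 1.93 to 2.09 and by -1.49 to -1.39, and PLAU by 1.17 to 1.34 and by -0.39 to -0.20 (log2). PLAUR ranged from 0.53 to 0.88 and from -0.71 to -0.24, and SERPINE2 from -0.45 to -0.28 and from 0.29 to 0.36. In shYAP1_H2O2 against shNC, PLAU (0.94 to 1.01) and PLAT (0.51 to 0.63) also kept direction and call under all 16 alternatives. SERPINE2 and PLAUR were less stable in that comparison, and the cause was not tested. There SERPINE2 was 0.0062 with library sizes alone, 0.0012 without shYAP1_H2O2 replicate 1 and 0.00056 without replicate 2 (range over left-out libraries -0.033 to 0.0012). It was -0.14 once the shift of neighbouring genes was taken off (limma adjusted p = 0.0453). PLAUR was 0.21 with library sizes alone (edgeR adjusted p = 0.0255), 0.11 without both libraries of high mitochondrial share (0.0435) and 0.29 with the neighbouring shift removed (limma, 0.00479), the last of which called 4 members in place of 2. Over left-out libraries PLAUR ranged from 0.10 to 0.23. YAP1 in that comparison was 0.016 without shYAP1_H2O2 replicate 3 (-0.088 to 0.016 over left-out libraries), and ETV5 was -0.24 in shYAP1_H2O2 against shNC_H2O2 with the neighbouring shift removed. The order PLAU, SERPINE2, PLAUR, PLAT held in 8 libraries by exon length and in 0 by the longest transcript.

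Same-numbered replicates did not clearly deviate together (correlations over all tested genes -0.222 to 0.103). These correlations include the 2 libraries of high mitochondrial share, so they cannot exclude that the numbers pair the samples. With the replicate number as a block PLAT changed by 2.01, -1.42 and 0.59 in the 3 comparisons, and 8536, 7798 and 5731 genes were called, against 8971, 8288 and 6265 without it. Depth limits SERPINB2 most, since 0 counts give only an upper limit.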
